A study of Mus musculus with 6 samples.

Results

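The genes described here are 10 genes of the circadian clock, Dbp, Nr1d1, Nr1d2, Arntl, Per1, Per2, Per3, Ciart, Tef and Cry1, taken by their symbols from the 32285 genes listed in every library. Their RNA was counted in single cells of the jejunal epithelium of male C57BL/6J mice that were about 30 weeks old. LFD sham mice were kept on a low-fat diet and sham-operated, HFD sham mice were kept on a high-fat diet and sham-operated, and HFD VSG mice were kept on the high-fat diet and received a vertical sleeve gastrectomy (VSG), which removes most of the stomach. Mice had 16 weeks of diet before surgery and were killed 5 weeks after it, following an overnight fast. Each group gave 1 crypt-labelled and 1 villus-labelled library from the same animals, with 3 mice pooled in the LFD sham, 3 in the HFD sham and 2 in the HFD VSG group. With 1 library per group and fraction there was no replicate check, so values carry 95% intervals that cover counting error only, and no test between groups was possible.

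The clock is a transcriptional loop that runs in nearly every cell of the body. CLOCK and BMAL1, the protein of Arntl, bind E-box sequences and switch on Per, Cry, Nr1d1, Nr1d2, Ciart, Dbp and Tef. PER and CRY proteins then shut CLOCK-BMAL1 off, and NR1D1 and NR1D2 (REV-ERB alpha and beta) repress Arntl through ROR elements, so that Arntl RNA is low when Nr1d1 and Dbp RNA are high. DBP and TEF pass the rhythm on through D-boxes to genes of metabolism and transport, and to the clock gene Per3. In the intestine the loop is known for following meal times as well as light. The hour at which the mice were killed was not given in the sources used here, so the hour and the group cannot be told apart. An isolation batch is named in the study's material without the libraries it refers to, and it likewise cannot be told apart from the groups.

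The 6 libraries held 7765 to 12012 called barcodes and 60522766 to 155522445 unique molecular identifiers (UMIs, each standing for 1 captured RNA molecule). After filters on genes, mitochondrial UMIs and doublets, 23637 of 59457 barcodes were kept, with a median of 8479 to 30274 UMIs per cell in a library, and 17 to 43 barcode sequences were shared by any pair of libraries. Cells were sorted into classes by marker genes after clustering without the clock genes, and names such as enterocyte-like mean no more than that. Marker content went against the labels: cycling progenitor-like cells made up 3.68% to 8.45% of the epithelial cells of the crypt-labelled libraries and 10.6% to 24.6% of those of the villus-labelled libraries. The libraries are therefore called crypt-labelled and villus-labelled throughout. Enterocyte-like cells, the class used for the comparisons between groups, numbered 900 to 2298 per library, with a median of 14432 to 17971 UMIs in 5 libraries and of 34846 UMIs in the villus-labelled HFD VSG library. Levels are in CPM, the usual scale on which the UMIs of a gene are divided by all UMIs of the class in that library.

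The members lie on 8 autosomes of the mouse genome (GRCm38, GENCODE vM21). Dbp (ENSMUSG00000059824) spans chr7:45705088-45710203, Nr1d1 (ENSMUSG00000020889) chr11:98767932-98775333, Nr1d2 (ENSMUSG00000021775) chr14:18204054-18239127 and Arntl (ENSMUSG00000055116) chr7:113207465-113314126. Per1 (ENSMUSG00000020893) spans chr11:69095217-69109960, Per2 (ENSMUSG00000055866) chr1:91415982-91459324, and Per3 (ENSMUSG00000028957) chr4:151003652-151044665. Ciart (ENSMUSG00000038550) spans chr3:95878503-95882251, Tef (ENSMUSG00000022389) chr15:81802421-81826863, and Cry1 (ENSMUSG00000020038) chr10:85131700-85185064. Exons of Nr1d1 overlap those of Thra on the opposite strand, and those of Dbp, Arntl and Tef overlap Sphk2, Gm45355 and Gm17597, also on the opposite strand. How the counting treated strand is not given in the sources used here, so reads of these pairs could be mixed.

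RefSeq promoter windows, which run from 250 bases before to 50 bases after a start site on GRCm38.p6, were available for 9 of the 10 members, Per2 being the exception. The sequences below are shown because they carry the elements through which the loop acts, and capitals mark the element. The E-box CACGTG, searched on both strands, stood in the windows of Ciart, Cry1, Per1 and Tef, and 7.15% of all 32851 windows held it. Ciart, which encodes a repressor of CLOCK-BMAL1, had 3 E-boxes, starting 116, 58 and 44 bases before its start.
Ciart, chr3:95882253-95882358, minus strand: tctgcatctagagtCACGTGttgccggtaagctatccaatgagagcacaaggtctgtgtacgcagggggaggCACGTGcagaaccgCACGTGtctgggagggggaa
Per1, chr11:69098769-69098802, plus strand: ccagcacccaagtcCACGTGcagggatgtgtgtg
Cry1, chr10:85185095-85185128, minus strand: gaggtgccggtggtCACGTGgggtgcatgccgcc
Tef, chr15:81811262-81811295, plus strand: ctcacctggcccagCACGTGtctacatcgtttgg
The D-box TTATGTAA, on which DBP and TEF act, stood in the window of Per3 alone among the members, 2 times, and in 0.938% of all windows. The letters TAGGTCA, the core of a ROR element, stood in a window of Arntl alone among the members and in 2.61% of all windows.
Per3, chr4:151044802-151044884, minus strand: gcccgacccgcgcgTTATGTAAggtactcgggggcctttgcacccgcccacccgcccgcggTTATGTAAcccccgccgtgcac
Arntl, chr7:113207531-113207557, plus strand: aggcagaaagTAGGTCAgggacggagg
These matches are descriptions of letters in short windows, and a window without a match says nothing about the factor.

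Several clock genes differed between enterocyte-like cells and the other epithelial classes in all 6 libraries, while others did not. Dbp, a transcription factor and the standard readout of clock output, stood at 169 CPM in the crypt-labelled LFD sham, 159.9 in the HFD sham and 165 in the HFD VSG library, and at 106, 147 and 129.7 CPM in the villus-labelled libraries in the same order. In goblet-like cells it ranged from 4.18 to 29.1 CPM and in stem-like cells from 9.36 to 25.7 CPM. No library had a goblet-like or stem-like value near its enterocyte-like value. The log2 ratio of stem-like to enterocyte-like cells lay between -3.91 and -2.63 with a median of -3.12, and that of goblet-like cells between -4.95 and -2.54 with a median of -3.49.

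Arntl, the activator arm of the loop, had the opposite arrangement. Its enterocyte-like level was 2.13, 2.31 and 1.94 CPM in the crypt-labelled LFD sham, HFD sham and HFD VSG libraries and 2.22, 1.56 and 1.77 CPM in the villus-labelled ones, from 32 to 82 UMIs. In cycling progenitor-like cells it was 6.21 to 10.6 CPM, in goblet-like cells 6.21 to 8.78 CPM and in stem-like cells 4.93 to 10.9 CPM. Each of these 3 classes was above enterocyte-like cells by a log2 ratio of over 0.5 in 6 of 6 libraries, with medians of 1.99, 2.01 and 1.69, although the stem-like sum was only 3 UMIs in the crypt-labelled HFD sham library. Droplets with fewer than 100 UMIs, which hold free RNA and no cell, had 0.871 to 3.82 CPM of Arntl, below all the values of these 3 classes. Enterocyte-like Arntl was not above the droplet value of its library in 3 of 6, with 2.13 CPM against 3.00 in the crypt-labelled LFD sham, 2.31 against 3.82 in the HFD sham, and 2.218 against 2.221 in the villus-labelled LFD sham library.

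**Figure D1:**
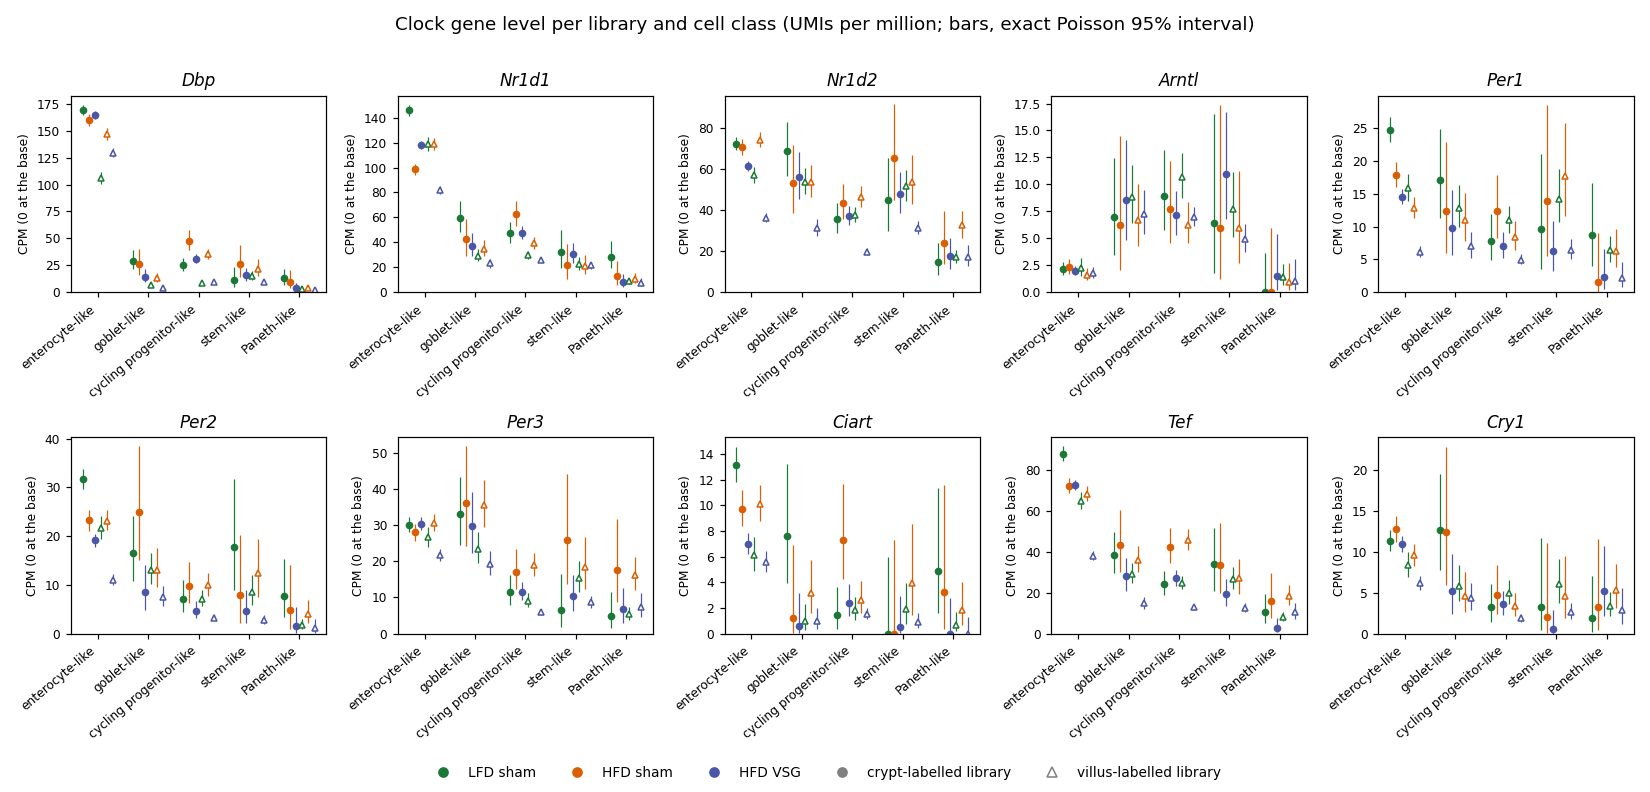
Level of each clock gene (y axes, CPM) in 5 cell classes (x axes) of each library. Points are libraries, coloured by group, filled for crypt-labelled and open for villus-labelled, and bars are exact Poisson 95% intervals. Dbp, Nr1d1 and Tef stand highest in enterocyte-like cells, and Arntl stands higher in goblet-like, cycling progenitor-like and stem-like than in enterocyte-like cells.

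Counted over the members, 7 of 10 were lower in cycling progenitor-like than in enterocyte-like cells by over 0.5 in all 6 libraries, whereas 12.2% of the 10924 genes compared were, and Arntl was the only member higher by that size, as were 37.3% of genes. In stem-like cells 5 members were lower in this way (15.4% of genes) and Arntl was higher (37.4% of genes). In goblet-like cells 4 members were lower (14.5% of genes) and Arntl was higher (33.0% of genes). Dbp, Nr1d1, Ciart and Tef were the lower members in goblet-like cells, and Per2 joined them in stem-like cells, although Ciart was at or under 3 UMIs in the goblet-like cells of 2 libraries and the stem-like cells of 3. Nr1d1, the repressor of Arntl, had enterocyte-like levels of 146, 98.5 and 118 CPM in the crypt-labelled and 119, 119 and 81.9 CPM in the villus-labelled libraries, against 21.01 to 32.2 CPM in stem-like cells. Tef, the D-box factor related to DBP, had 87.8, 72.3 and 72.6 CPM and then 64.8, 68.2 and 38.1 CPM in enterocyte-like cells, against 12.6 to 33.9 CPM in stem-like cells.

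Not every member followed Dbp. Nr1d2, which encodes the second REV-ERB repressor, had 72.5, 70.7 and 61.6 CPM in crypt-labelled and 57.1, 74.5 and 36.4 CPM in villus-labelled enterocyte-like cells, and goblet-like cells had 31.2 to 69.0 CPM. Its goblet-like to enterocyte-like log2 ratio was between -0.47 and -0.07, so in no library did it pass 0.5. Per3, a period gene, differed between goblet-like and enterocyte-like cells by a log2 ratio of -0.18 to 0.37, and by -1.84 to -0.70 between cycling progenitor-like and enterocyte-like cells. Per1, a period gene that also responds to acute signals, had stem-like to enterocyte-like log2 ratios from -1.36 to 0.47, with libraries on either side of 0. Per2, the period gene closest to the core loop, was lower in stem-like cells in all 6 libraries, with ratios from -2.02 to -0.84. Ciart reached at most 12 UMIs in the goblet-like and 11 UMIs in the stem-like cells of a library. Cry1, a cryptochrome repressor, was lower in cycling progenitor-like cells in all 6 libraries, from -1.81 to -0.76.

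Paneth-like cells, which made up 28 to 228 cells per library, had the lowest median level of Dbp among the 5 classes plotted, 3.87 CPM, with 1.76 to 12.7 CPM over the libraries. Their Arntl was also low, with 0 UMIs in the crypt-labelled LFD sham and HFD sham libraries and at most 10 UMIs in any library. The 3-count limit that a sum of 0 allows was 2.93 CPM in the crypt-labelled LFD sham and 4.82 CPM in the HFD sham library. Low CPM in Paneth-like cells was not particular to Dbp and Arntl. Clock had a median of 17.6 CPM there, against 64.5 in enterocyte-like and 75.1 in stem-like cells. Csnk1d, described below, had 14.5 against 46.7 and 52.8 CPM. The part of the makeup of the class total in these levels was not tested. Tuft-like and enteroendocrine-like cells gave at most 7 and 15 UMIs of Dbp per library, too few for an order.

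Free RNA bears on the low classes. Droplets with fewer than 100 UMIs had 35.5 to 126 CPM of Dbp, and every goblet-like, stem-like and cycling progenitor-like value was below the droplet value of its own library, so part of the Dbp in these classes may be free RNA, which was not tested. Enterocyte-like Dbp was above the droplet value in 6 of 6 libraries. Enterocyte-like Nr1d1 was above it in 5 of 6, the exception being the crypt-labelled LFD sham library, with 146 CPM in cells and 162 CPM in droplets. Enterocyte-like Per1 was above it in only 3 of 6, with 24.8 CPM in cells and 25.5 in droplets of the crypt-labelled LFD sham, 17.8 and 18.5 of the HFD sham, and 6.19 and 7.00 of the villus-labelled HFD VSG library. The other members apart from Arntl were above the droplet value in 6 of 6 libraries.

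To set aside depth per cell, each cell was thinned to 3000 UMIs. At this depth 37.5%, 35.9% and 38.4% of enterocyte-like cells of the crypt-labelled LFD sham, HFD sham and HFD VSG libraries held a Dbp UMI, and 24.95%, 35.9% and 27.7% of those of the villus-labelled libraries. The unthinned shares were 60.8% to 90.0%. In goblet-like cells the thinned share was 1.77% to 8.49%, and 8.50% to 17.5% before thinning. Thinning left out 1 to 61 enterocyte-like and 6 to 44 goblet-like cells per library. No single cell carried the level: the cell with most Dbp held 0.19% to 0.72% of the Dbp UMIs of its library's enterocyte-like cells. For Arntl that share was 3.03% to 9.38%.

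Within the absorptive cells the members changed with the cluster. The largest enterocyte-like cluster was led by Gsta1 and Reg3a, the next by Apoc2 and Pck1, and unnamed clusters were led by Fabp6 and Car4 and by Ada and Nt5e, which are known as genes of the villus tip. Dbp was 101 to 165 CPM in the Gsta1 cluster, 137 to 197 CPM in the Apoc2 cluster, 39.9 to 122 CPM in the Fabp6 cluster and 31.9 to 68.3 CPM in the Ada cluster. The Ada cluster was below both enterocyte-like clusters in 6 of 6 libraries. Nr1d1 did not share this: the Ada cluster had 176, 111 and 171 CPM in the crypt-labelled LFD sham, HFD sham and HFD VSG libraries and 104, 109 and 167 CPM in the villus-labelled ones, next to 134, 98.3 and 109.5 CPM and then 105, 122 and 81.0 CPM in the Gsta1 cluster. Ciart, whose promoter holds the 3 E-boxes printed above, was 0 to 3.40 CPM in the Ada cluster, from at most 8 UMIs, and 5.603 to 11.97 CPM in the Gsta1 cluster. Arntl was 0.825 to 2.98 CPM in the Apoc2 cluster and 1.66 to 7.69 CPM in the Ada cluster, where 1 to 15 UMIs were counted. The Ada cluster held 19 cells in the villus-labelled HFD VSG library, and the median UMI count of its cells was 0.515 of that of the kept cells of their libraries. The part of this lower depth in the differences was not tested.

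**Figure D2:**
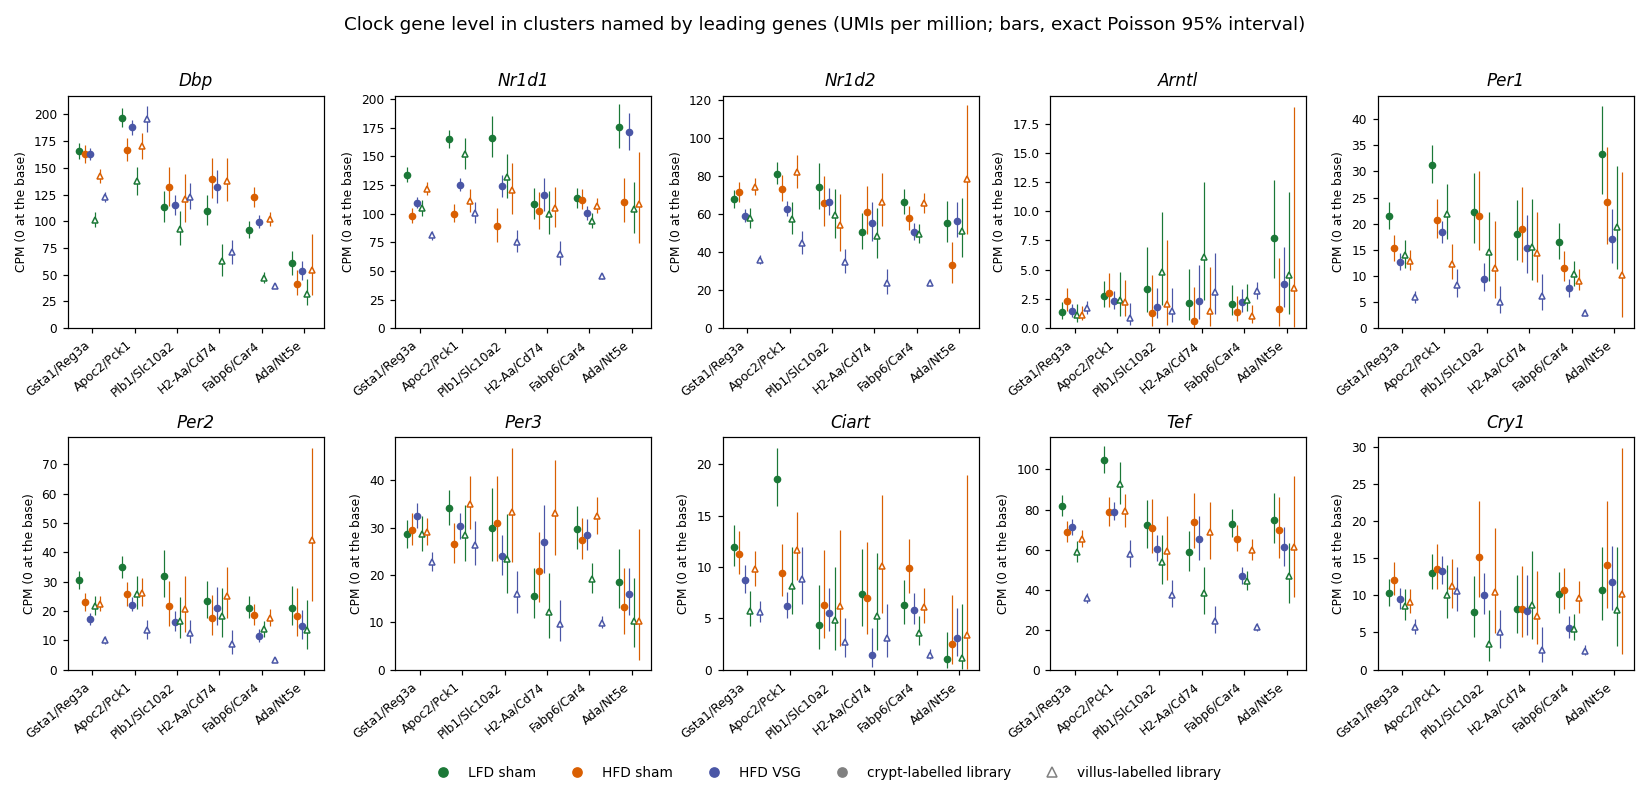
Level of each clock gene (y axes, CPM) in 6 clusters of absorptive cells named by leading genes (x axes). Points are libraries with at least 20 cells in the cluster, coloured by group, filled for crypt-labelled and open for villus-labelled, with exact Poisson 95% intervals. Dbp stands at 31.9 to 60.5 CPM in the Ada/Nt5e cluster of the 5 libraries drawn, while Nr1d1 there is at 104 to 176 CPM.

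The phase pattern was compared between libraries with an index, the mean log2 level of Dbp, Nr1d1, Nr1d2, Per3, Ciart and Tef minus the log2 level of Arntl in the same cells, in which a factor common to a library cancels. In enterocyte-like cells it was 4.88 (95% interval 4.51 to 5.26) in the crypt-labelled LFD sham, 4.52 (4.09 to 4.94) in the HFD sham and 4.73 (4.41 to 5.04) in the HFD VSG library. The villus-labelled libraries had 4.32 (3.82 to 4.82), 5.14 (4.64 to 5.63) and 4.30 (3.93 to 4.67) in the same order. Between villus-labelled libraries the HFD sham index was above that of LFD sham by 0.82 (0.11 to 1.52), and the HFD VSG index differed from that of HFD sham by -0.84 (-1.46 to -0.22). Between crypt-labelled libraries the differences were -0.36 (-0.93 to 0.20) for diet and 0.21 (-0.32 to 0.74) for surgery, with intervals that included 0. The villus-labelled diet difference turned when cells were thinned to 3000 UMIs, to 5.46 in LFD sham and 4.92 in HFD sham. The surgery difference kept its direction there, with 4.45 in HFD VSG. After thinning, however, Arntl was found in only 0.107% of 938 LFD sham, 0.576% of 1388 HFD sham and 0.445% of 899 HFD VSG cells. That is too few to tell a direction from the thinned index, in which sums under 3 UMIs were set to 3. Within single clusters the surgery difference did not keep one direction. The villus-labelled index was 5.56 (4.85 to 6.27) after sham and 4.34 (3.87 to 4.81) after VSG in the Gsta1 cluster, but 4.76 (3.86 to 5.66) and 5.86 (4.44 to 7.27) in the Apoc2 cluster, the latter from 4 UMIs of Arntl. In an enterocyte-like cluster led by Plb1 and Tmigd1 it was 3.89 (2.24 to 5.54) and 4.25 (2.98 to 5.53). The Apoc2 cluster made up 26.0% of the villus-labelled enterocyte-like cells after sham and 16.4% after VSG. The intervals cover counting error only, and Arntl in the index was not above the droplets in the 3 libraries named above, the villus-labelled LFD sham library among them, so that the Arntl term there may be free RNA. Neighbours in the order of the 6 values had overlapping intervals. In goblet-like cells the index was 0.42 to 2.22, in cycling progenitor-like cells 0.23 to 1.95 and in stem-like cells 0.34 to 2.01, so every one of these values was below every enterocyte-like value.

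In cycling progenitor-like cells the villus-labelled HFD sham library stood apart from its neighbours. Its index was 1.88 (1.44 to 2.32), against 0.23 (-0.08 to 0.54) in the LFD sham and 0.37 (0.17 to 0.58) in the HFD VSG library, and these intervals did not overlap. Dbp was 35.1 CPM there and 8.33 and 9.17 CPM in the others, and Arntl was 6.21 CPM against 10.6 and 6.98 CPM. The crypt-labelled libraries of the same mice had indices of 0.84 (0.22 to 1.47), 1.95 (1.26 to 2.63) and 1.39 (0.96 to 1.81), with HFD sham again the highest. The crypt-labelled HFD sham index was above that of LFD sham by 1.11 (0.18 to 2.04), whereas HFD VSG differed from HFD sham by -0.56 (-1.37 to 0.25), an interval that included 0. Free RNA bears on this: droplets held 62.7 CPM of Dbp in the villus-labelled HFD sham library, and 35.5 and 49.2 CPM in the LFD sham and HFD VSG libraries. The methods of the study also describe a larger estimated share of free RNA in both HFD sham libraries than in any other library. For that reason the droplet profile was subtracted at a share of 0.25 from the HFD sham libraries only, an alternative added after the data were seen. Then the villus-labelled HFD sham index was 1.30 (0.84 to 1.77), still without overlap with the others. The crypt-labelled one was 1.52 (0.79 to 2.26), an interval that included the 0.84 of LFD sham and the 1.39 of HFD VSG. With the same share subtracted from every library, the villus-labelled index was -1.49 (-1.94 to -1.04) in LFD sham, 1.30 in HFD sham and -1.25 (-1.60 to -0.90) in HFD VSG, a wider gap, but an equal share in every library is not what those methods describe. The share of free RNA was not estimated here, and its part in the higher HFD sham index was not tested. The class joins a cluster led by Ccnb2 and Cdkn3 and a histone-rich S-phase cluster, which held 65 of 392 villus-labelled HFD sham cells, 154 of 476 LFD sham and 253 of 944 HFD VSG cells. In the Ccnb2 cluster alone the villus-labelled index was 2.07 (1.57 to 2.58) for HFD sham, 0.46 (0.05 to 0.86) for LFD sham and 0.80 (0.53 to 1.08) for HFD VSG, again with no overlap. In the S-phase cluster it was 1.05 (0.14 to 1.97) for HFD sham, from 11 UMIs of Arntl, and -0.15 (-0.63 to 0.33) for LFD sham. These intervals overlapped, whereas that of HFD VSG, at -0.44 (-0.75 to -0.12), lay below that of HFD sham.

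The diet comparison set HFD sham against LFD sham. In crypt-labelled enterocyte-like cells Nr1d1 was 98.5 CPM on HFD and 146 CPM on LFD, a log2 ratio of -0.57 (-0.64 to -0.49), and it was the 1 member of 10 lower by over 0.5, a size that 8.2% of 10297 genes passed downward. Its ratio no longer passed 0.5 in the largest enterocyte-like cluster, at -0.45, with a limit of 10% mitochondrial UMIs, at -0.46, or with a free RNA share of 0.25 subtracted, at -0.47. No member was higher by that size, which 6.22% of genes passed. Per1, Per2 and Ciart were at -0.48 (-0.67 to -0.29), -0.45 (-0.62 to -0.28) and -0.43 (-0.69 to -0.17), while Dbp was at -0.08 (-0.15 to -0.02) and Nr1d2 at -0.04 (-0.14 to 0.06). The members' median was -0.19, next to -0.01 over all genes. Nr1d1 was lower on HFD in 12 of 13 clusters, and Dbp in 7 of 13, with no share over all genes computed. The small Dbp ratio turned to 0.07 (0.00 to 0.14) with the free RNA share of 0.25 subtracted from HFD sham only, and to 0.16 with the 10% limit.

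In villus-labelled enterocyte-like cells the diet values were different. Ciart was 10.1 CPM on HFD and 6.10 CPM on LFD, a log2 ratio of 0.73 (0.37 to 1.11), the 1 member above 0.5 when 6.33% of 10190 genes were. Arntl, at -0.51 (-1.25 to 0.24) from 33 and 32 UMIs, was the 1 member below -0.5 when 9.29% of genes were, with an interval that included 0. The Arntl ratio turned to 0.85 when cells were thinned to 3000 UMIs and to 0.05 in the Gsta1 cluster alone. Thinned Arntl was in 0.576% of cells on HFD and 0.107% on LFD, and the Gsta1 cluster held 16 and 9 UMIs of it. These counts are too few to tell a direction. Dbp was 147 CPM on HFD and 106 CPM on LFD, at 0.47 (0.38 to 0.56), and Nr1d2 was at 0.38 (0.26 to 0.51). With the free RNA share subtracted from HFD sham only, these were 0.72 and 0.62, so that 3 members with Ciart were above 0.5, as were 13.2% of genes, and none was below. Nr1d1 was 119 CPM in both, at 0.00 (-0.09 to 0.09). The Gsta1 cluster made up 45.75% of these cells on LFD and 60.7% on HFD, and the part of cell makeup in the diet values was not tested. Over the clusters, Dbp was higher on HFD in 13 of 13 and Ciart in 12 of 12, whereas Arntl was lower in 10 of 12. These counts are descriptive, since clusters of a library share its preparation, and the share over all genes was not computed.

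**Figure D3:**
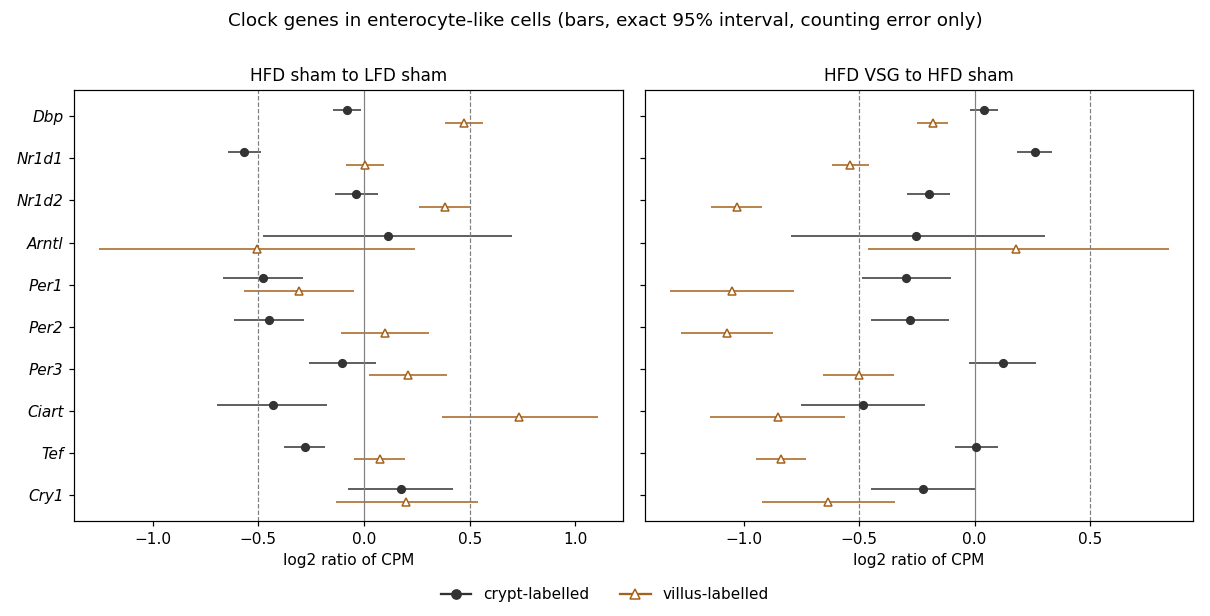
Log2 ratio of CPM (x axes) for each clock gene (y axis) in enterocyte-like cells, for diet on the left and surgery on the right. Filled circles are crypt-labelled and open triangles villus-labelled libraries, bars are exact 95% intervals for counting error, and dashed lines mark 0.5 in each direction. In the villus-labelled surgery comparison 8 members lie below -0.5, and in the crypt-labelled one none do.

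The surgery comparison set HFD VSG against HFD sham, and shares the HFD sham libraries with the diet comparison. In crypt-labelled enterocyte-like cells no member passed 0.5 in either direction, which 3.28% of 10658 genes did downward and 8.61% upward, and the median of all genes was itself 0.11. Ciart had 6.97 CPM after VSG and 9.75 CPM after sham, at -0.48 (-0.75 to -0.21), and Per1 had 14.5 and 17.8 CPM, at -0.30 (-0.49 to -0.10). Nr1d1 was higher after VSG, at 0.26 (0.18 to 0.34). Per1 was lower after VSG in 12 of 12 clusters, and the share over all genes was not computed. In droplets Per1 was 13.5 CPM after VSG and 18.5 CPM after sham.

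In villus-labelled enterocyte-like cells 8 of 10 members were below -0.5 after VSG and none above 0.5, while 16.7% of 10688 genes were below and 20.1% above and the median of all genes was 0.00. Per2 had 11.001 CPM after VSG and 23.1 CPM after sham, a log2 ratio of -1.07 (-1.27 to -0.87). Per1 had 6.19 and 12.8 CPM, at -1.05 (-1.32 to -0.78), and Nr1d2 had 36.4 and 74.5 CPM, at -1.03 (-1.14 to -0.92). These 3 were the lowest of the members. Ciart was at -0.85 (-1.15 to -0.56), Tef at -0.84 (-0.95 to -0.73), Cry1 at -0.64 (-0.92 to -0.35), Nr1d1 at -0.54 (-0.62 to -0.46) and Per3 at -0.50 (-0.66 to -0.35). Dbp was at -0.18 (-0.25 to -0.11), an interval that overlapped none of these 8. Arntl was at 0.18 (-0.46 to 0.84). Nr1d2, Per1, Per2, Per3, Ciart and Tef were each lower after VSG in 12 of 12 clusters. This count is descriptive, since clusters of a library share its preparation and free RNA, and the share over all genes was not computed. Droplets of the villus-labelled libraries also held less of each of these members after VSG than after sham. Per2 in droplets was 7.22 against 15.4 CPM and Tef 14.9 against 31.4 CPM. The part of free RNA in the cluster values was not tested.

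The villus-labelled HFD VSG library differed from the others in more than the clock genes. Its enterocyte-like cells had a median of 9.45% mitochondrial UMIs, against 11.6% to 13.2% in the others. Of their UMIs 0.905% were of Gm42418, a locus that overlaps ribosomal RNA genes. That share was 1.25% in the crypt-labelled HFD VSG library and 3.94% to 6.145% in the sham libraries, so it was lower after VSG in both fractions. In the same cells the Apoc2 cluster made up 16.4%, against 26.0% to 43.9% in the others. Within that cluster the surgery log2 ratios in villus-labelled libraries were 0.20 for Dbp, -0.14 for Nr1d1, -0.45 for Tef, -0.87 for Nr1d2 and -0.96 for Per2. Markers of other cell types in the enterocyte-like cells also differed between villus-labelled libraries. The 9 Paneth markers summed to 3005 CPM in LFD sham, 2571 in HFD sham and 612 in HFD VSG, against 378 to 678 CPM in the crypt-labelled libraries, and none was at 0 in any library. The 12 immune markers summed to 52.5, 0.568 and 47.4 CPM, with 8 at 0 in the HFD sham library, against 3.38 to 12.1 CPM in the crypt-labelled ones. The part of depth, cell makeup and RNA of other cell types in the differences was not tested.

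HFD VSG set against LFD sham gave 3 members below -0.5 in crypt-labelled cells, where 6.22% of genes were, and none above, where 11.7% were. They were Ciart at -0.92 (-1.14 to -0.69), Per1 at -0.77 (-0.93 to -0.61) and Per2 at -0.73 (-0.87 to -0.59). In villus-labelled cells 5 members were below -0.5, with 19.7% of genes, and none above, with 20.8% of genes. Per1 was the lowest, at -1.36 (-1.64 to -1.08), and Per2 was at -0.98 (-1.20 to -0.75). Dbp was at -0.04 (-0.09 to 0.01) in crypt-labelled and 0.29 (0.21 to 0.38) in villus-labelled cells. This comparison shares a library with each of the others.

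Because a change of total UMIs moves all CPM values together, each member was also set against Dbp in the same cells, a measure added after the values had been seen. Per1 had 14.6 UMIs for every 100 of Dbp in the crypt-labelled LFD sham library (95% interval 13.5 to 15.9), 11.1 (9.94 to 12.45) in the HFD sham and 8.81 (8.10 to 9.57) in the HFD VSG library. The villus-labelled values were 14.98 (13.0 to 17.2), 8.72 (7.68 to 9.88) and 4.77 (4.12 to 5.49). Set against Dbp, Per1 was highest in LFD sham and lowest in HFD VSG in both fractions, with no overlap of intervals between groups. Its enterocyte-like CPM was not above that of droplets in 3 of 6 libraries, as given with the free RNA values. Per2 set against Dbp had the same order, with 18.7, 14.5 and 11.6 UMIs per 100 of Dbp in the crypt-labelled and 20.4, 15.7 and 8.48 in the villus-labelled libraries, and again without overlap. By CPM, villus-labelled Per2 was 21.6 on LFD and 23.1 on HFD, a log2 ratio of 0.10 (-0.11 to 0.31), so there its diet order appeared only against Dbp, which was higher on HFD by 0.47.

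Nr1d1 had 86.2 UMIs per 100 of Dbp in the crypt-labelled LFD sham, 61.6 in the HFD sham and 71.7 in the HFD VSG library, and 111.9, 80.9 and 63.2 in the villus-labelled ones. LFD sham was the highest in both fractions, but the order of the HFD groups differed between fractions. Tef had 51.9, 45.2 and 44.1 and then 61.2, 46.4 and 29.4. Per3 hardly differed in crypt-labelled libraries, at 17.7, 17.5 and 18.4, and was 25.0, 20.8 and 16.7 in villus-labelled ones. Arntl was 1.06 to 2.09 per 100 of Dbp. In the Gsta1 cluster alone the Per1 values were 12.9, 9.38 and 7.79 and then 13.8, 9.05 and 4.79, and in the Apoc2 cluster alone 15.8, 12.4 and 9.76 and then 15.9, 7.26 and 4.22, in the same group order as over all enterocyte-like cells.

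**Figure D4:**
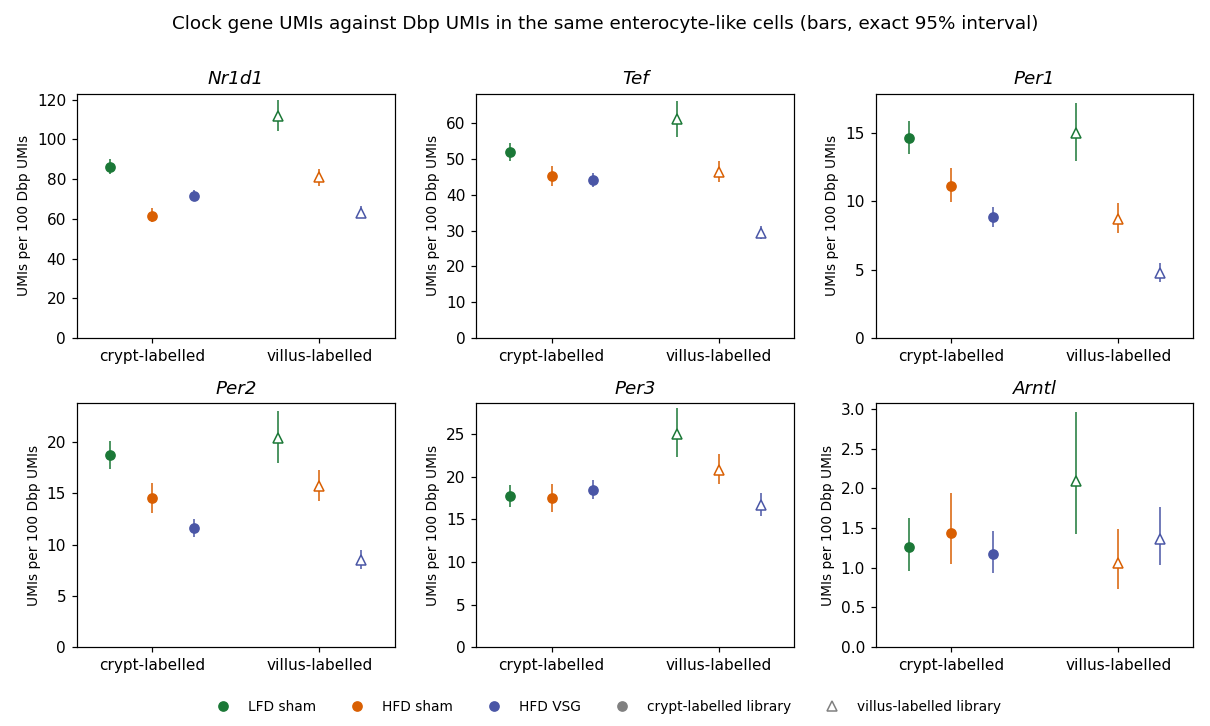
UMIs of 6 clock genes for every 100 UMIs of Dbp in the same enterocyte-like cells (y axes), by library (x axes, LFD sham, HFD sham and HFD VSG from left to right in each fraction). Bars are exact 95% intervals. Set against Dbp, Per1 and Per2 stand highest in LFD sham and lowest in HFD VSG in both fractions, although Per2 by CPM was 21.6 on LFD and 23.1 on HFD in villus-labelled cells, and the Arntl intervals are wide because 32 to 82 of its UMIs were counted.

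Of the 19 other clock genes on a list of partners, regulators and outputs, 15 had a mean of at least 20 UMIs over the enterocyte-like cells of the 6 libraries, and 13 of them are described. Arntl2, Rora, Bhlhe41 and Timeless did not, and the sums of each were at most 5 UMIs. Clock, the partner of BMAL1, was 66.9, 63.8 and 61.4 CPM in crypt-labelled and 67.9, 65.1 and 46.6 CPM in villus-labelled enterocyte-like cells, and its stem-like to enterocyte-like log2 ratio was only -0.05 to 0.50. Csnk1d, a kinase that acts on PER proteins, was similarly even, with -0.06 to 0.41. Clock thus did not share the class pattern of its partner Arntl. Cry2, Hlf, Usp2 and Nampt were lower by over 0.5 in 6 of 6 libraries in each of the stem-like, cycling progenitor-like and goblet-like classes, with Hlf at or under 3 UMIs in the stem-like cells of 5 libraries. Csnk1e, another PER kinase, was the opposite in each, with medians of 3.80, 1.77 and 3.02. Bhlhe40, a repressor that binds E-boxes, was lower by over 0.5 in stem-like cells in 6 of 6 libraries, with a median of -1.60, and Wee1, a cell-cycle kinase, was higher in them in 6 of 6, with a median of 1.77.

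**Figure D5:**
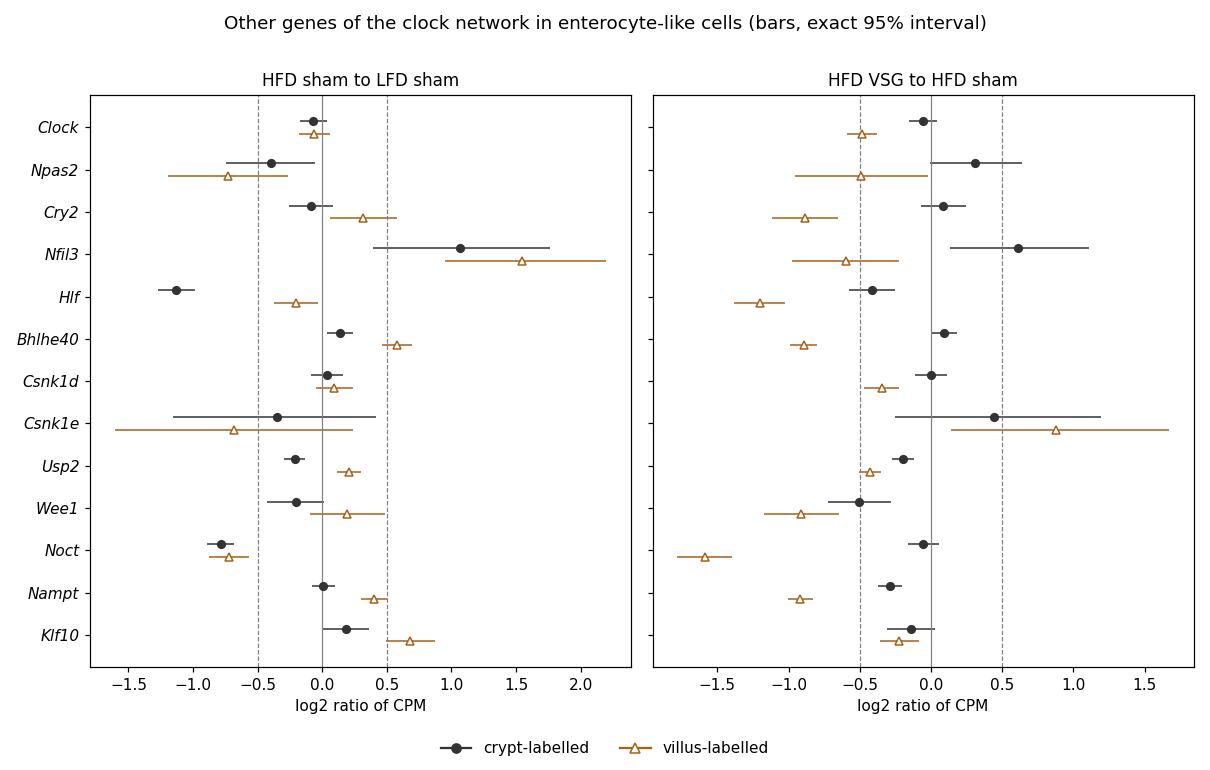
Log2 ratio of CPM (x axes) for 13 other genes of the clock network (y axis) in enterocyte-like cells, for diet on the left and surgery on the right. Filled circles are crypt-labelled and open triangles villus-labelled libraries, with exact 95% intervals for counting error and dashed lines at 0.5 in each direction. Noct lies below -0.5 for diet in both fractions and Nfil3 above 0.5, and 7 genes lie below -0.5 for surgery in the villus-labelled libraries.

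In the diet comparison of this list, 2 of 13 genes were below -0.5 and 1 above in crypt-labelled cells, where 8.2% and 6.22% of all genes were, and 3 below and 3 above in villus-labelled cells, where 9.29% and 6.33% were. Hlf, the third D-box activator beside DBP and TEF, was 58.8 CPM on LFD, 26.9 CPM on HFD and 20.2 CPM after VSG in crypt-labelled cells, and 35.4, 30.6 and 13.3 CPM in villus-labelled cells. Its diet log2 ratio was -1.13 (-1.27 to -0.99) in crypt-labelled and -0.21 (-0.38 to -0.04) in villus-labelled cells. Noct, a rhythmic gene of nutrient handling, was 92.5, 53.7 and 51.7 CPM and then 50.7, 30.8 and 10.2 CPM, with diet ratios of -0.78 (-0.89 to -0.68) and -0.72 (-0.88 to -0.57). Nfil3, the repressor that competes with DBP for D-boxes, was 1.18, 2.46 and 3.76 CPM and then 1.94, 5.68 and 3.75 CPM, with diet ratios of 1.07 (0.39 to 1.76) and 1.55 (0.95 to 2.20) from 28 to 120 UMIs. Nfil3 was thus lowest in LFD sham in both fractions, where Hlf and Noct were highest. The other genes past 0.5 were counted in villus-labelled cells, and whether the fractions differed was not tested. Bhlhe40 was at 0.58 (0.46 to 0.69) and Klf10, a rhythmic transcription factor, at 0.68 (0.49 to 0.87). Npas2, which can take the place of CLOCK beside BMAL1, was at -0.73 (-1.19 to -0.27). Csnk1e was at -0.68 (-1.61 to 0.24) from 21 and 23 UMIs, an interval that included 0.

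After surgery 1 gene of the list was below -0.5 and 1 above in crypt-labelled cells, whereas 7 of 13 were below and 1 above in villus-labelled cells. The shares of all genes were 3.28% below and 8.61% above in the former and 16.7% below and 20.1% above in the latter. Noct was the lowest there, at -1.59 (-1.78 to -1.40), followed by Hlf at -1.20 (-1.38 to -1.02). The others below were Nampt, Wee1 at -0.91 (-1.17 to -0.65), Bhlhe40 at -0.90 (-0.99 to -0.80), Cry2 at -0.88 and Nfil3 at -0.60. Nampt, the rate-limiting enzyme of NAD salvage, was 56.5 CPM after VSG and 107 CPM after sham, at -0.92 (-1.01 to -0.83). Csnk1e, at 0.88 (0.14 to 1.67) from 60 and 21 UMIs, was the gene above 0.5. In crypt-labelled cells Wee1 was the gene below, at -0.50 (-0.73 to -0.28), and Nfil3 the gene above, at 0.61.

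Lists of genes that respond to glucocorticoids, to handling and to fasting were summed in the same cells. The summed level of a list of glucocorticoid response genes (Fkbp5, Tsc22d3, Sgk1, Zbtb16 and Klf9) was 634 CPM in the crypt-labelled LFD sham, 355 in the HFD sham and 269.9 in the HFD VSG library, and 353, 274 and 125 CPM in the villus-labelled ones. Fkbp5, a standard glucocorticoid target, was the gene of the list with the lowest diet ratio in villus-labelled libraries, -3.22 (-3.52 to -2.93), and in crypt-labelled ones, -4.37 (-4.70 to -4.05), with 90.0, 4.36 and 0.969 CPM in the crypt-labelled and 49.0, 5.25 and 0.457 CPM in the villus-labelled libraries. Klf9 did not follow it, with diet log2 ratios of -0.10 (-0.27 to 0.07) and 0.44 (0.21 to 0.66), and for surgery in crypt-labelled libraries Klf9 was at 0.19 (0.04 to 0.35) and Tsc22d3 at -0.03 (-0.14 to 0.08). Sgk1 had the highest level of the list in each library and weighs most in the sum. It had 443, 276 and 191 CPM in the crypt-labelled and 223, 193 and 59.2 CPM in the villus-labelled libraries. The summed order, which is also that of Sgk1 alone, is the order of Per1 and Per2 against Dbp. Per1 is known to be switched on by glucocorticoids, and the part of that response in the Per1 values was not tested. Immediate early genes, which respond within minutes to stimuli such as tissue handling, summed to 2345, 2616 and 2269 CPM and then 1536, 2530 and 1434 CPM. The sum was highest in HFD sham in both fractions. By CPM, villus-labelled Per2 was also highest in HFD sham, whereas crypt-labelled Per2 and Per1 in both fractions were highest in LFD sham. The part of handling in the Per1 and Per2 values was not tested. Not every immediate early gene of the list was highest in HFD sham. In crypt-labelled cells Fos, the gene of the list with the highest level, was lowest in HFD sham, with 849, 816 and 881 CPM, and Egr1 had 180, 155 and 137 CPM. In villus-labelled cells Ier2 was highest after VSG, with 76.3, 96.5 and 111 CPM. Fasting genes summed to 1064, 599 and 645 CPM and then 591, 564 and 325 CPM, and its genes went both ways, with diet ratios in crypt-labelled cells from -1.22 for Angptl4 to 1.77 for Acot1.

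The likeness of other genes to the members was measured over 18 points, the 3 classes with at least 50 cells in every library times 6 libraries, after the class mean was taken off, so that points share libraries, depth and preparation. Of 9376 genes, Trim38, Agmo, Neurl3, Slc28a1 and Dpep1 were most like Dbp, with Pearson r of 0.955 to 0.960, and Poc1a, Gstm5, Orc6, Snhg1 and H2afz were least like it, with -0.905 to -0.871. The 4 genes most like Arntl were Elovl5, Uspl1, Mmgt1 and Rnf34, with 0.692 to 0.733. Among the members, Nr1d1 had r = 0.864 with Dbp, Per3 0.840, Ciart 0.801 and Tef 0.770. Nr1d2, Per2, Cry1 and Per1 had 0.650, 0.598, 0.592 and 0.419, and Arntl had -0.396. Nr1d1 thus stood at place 215 among the genes other than Dbp, and no clock gene was among the 5 most like it.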

How the data were processed

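The 6 droplet libraries (10x Genomics 3′ v3.1 chemistry) comprised 1 crypt-labelled and 1 villus-labelled for each of LFD sham, HFD sham and HFD VSG. The deposited matrices hold raw UMI counts per gene and barcode, which the authors made with Cell Ranger 6.0.0 on mm10, per the labels and the submitters' processing notes. How the counting treated strand is not given in the sources used here.

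From these counts, called barcodes with at least 750 genes and at most 20% mitochondrial UMIs were kept. Doublets were scored against simulated ones and removed at 0.8% for each 1000 barcodes, 4794 in all. Cells were clustered in Seurat 5.3.0 (R 4.3.3, sctransform 0.4.2, 2000 variable genes, 30 components, resolution 0.4) without the 10 members and the 19 other clock genes, and clusters were named from marker lists. Clusters that met no class or were led by genes of damaged droplets stayed unnamed and entered no class. UMIs were summed per class and library, with exact Poisson 95% intervals on levels and exact conditional binomial 95% intervals on ratios. Intervals on the phase index and its differences are normal approximations to the counting error. Sums under 3 UMIs were set to 3 in ratios. A gene counted as measured where its sums averaged 20 UMIs or more over the libraries compared, as those of all 10 members did. The intervals were checked on simulated counts. With 1 library per group, no p-value was computed, and the crypt-labelled and villus-labelled libraries of a group, which share mice, were not treated as replicates.

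Likeness used genes that averaged 50 UMIs or more. The text names all members and the other clock genes that averaged 20 UMIs or more in enterocyte-like cells, of which 2 are not reported here. The members and lists were chosen with earlier results of these data known. Python 3.11.15, NumPy 2.4.6 and SciPy 1.17.1 were used. Alternatives changed the filters, depth, clustering, scaling, free RNA and thresholds.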

Additional observations from a re-analysis of the deposited data

Results flagged for a closer look

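The diet log2 ratio of Dbp, HFD sham to LFD sham in enterocyte-like cells, was -0.082 in crypt-labelled and 0.47 in villus-labelled libraries. The directions were opposite and neither counting interval included 0. The crypt-labelled Dbp ratio turned to 0.072 with a free RNA share of 0.25 subtracted from HFD sham only, and to 0.16 with a limit of 10% mitochondrial UMIs, so that the directions were then the same. The diet ratio of Ciart was -0.43 in crypt-labelled and 0.73 in villus-labelled libraries, also with opposite directions. The surgery ratio of Nr1d1, HFD VSG to HFD sham, was 0.26 in crypt-labelled and -0.54 in villus-labelled libraries. These 3 pairs come from the same mice in both fractions, and with 1 library in each the difference between fractions was not tested.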

How the results depend on the processing

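The 60 member ratios were recomputed under 11 alternatives each. Of these 660 values, 543 lay within the counting interval of the reported ratio and 115 outside it. The direction turned in 2 cases among ratios past 0.5, both of them Arntl for diet in villus-labelled libraries, which became 0.85 with cells thinned to 3000 UMIs and 0.053 in the largest enterocyte-like cluster alone.

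Counts of members past 0.5 moved as follows, each with the share of all genes past that size under the same setting where it was computed. No such counts are given for HFD VSG set against LFD sham, where villus-labelled Nr1d1, at -0.53 (-0.62 to -0.45), was close to the threshold. For diet in crypt-labelled libraries, the 0 members above became 1 with a limit of 10% mitochondrial UMIs (9.78% of genes) and 1 in the largest cluster (7.03%). The 1 member below became 3 when thinned (9.91%), 2 with totals without mitochondrial and damage genes (9.35%), and 0 in the largest cluster (6.68%), with a free RNA share of 0.25 removed (8.56%), or at a threshold of 1 (2.17%). For surgery in crypt-labelled libraries, the 0 members below became 3 with the 10% limit (4.43%) and 1 with a minimum of 1500 genes (3.28%), thinned (3.53%), in the largest cluster (3.49%), with median-of-ratios scaling (4.64%), with totals without mitochondrial genes (3.77%), or with free RNA removed from HFD sham only (5.82%). For diet in villus-labelled libraries, the 1 member above became 2 with the 10% limit (9.38%), thinned (10.05%), or over all called barcodes (4.96%), 3 with free RNA removed from HFD sham only (13.2%), and 0 at a threshold of 1 (1.44%). The 1 below, Arntl, became 0 with 1500 genes (7.51%), thinned (8.55%), in the largest cluster (6.76%), without its top cell, with free RNA shares of 0.1 (7.90%) or 0.25 (7.57%) removed, with 0.25 removed from HFD sham only (11.5%), at a threshold of 1 (3.16%), or with a mean of at least 100 UMIs (4.32%). Thinned and in the largest cluster, Arntl averaged under 20 UMIs for diet and so was no longer measured there. For surgery in villus-labelled libraries, the 0 above became 1 in the largest cluster (18.6%) and over all barcodes (35.0%). The 8 below became 3 at a threshold of 1 (4.07%) and stayed within 6 to 9 otherwise, with 6 thinned (20.3%), while the share ran from 15.03% with median-of-ratios scaling to 25.7% with free RNA removed from HFD sham only.

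The phase index of enterocyte-like cells lay outside its interval in these cases. Over all called barcodes it was 4.32 in crypt-labelled LFD sham and 3.98 in HFD VSG, and 2.73, 4.08 and 2.18 in villus-labelled LFD sham, HFD sham and HFD VSG. Without Ciart it was 5.33, 5.01 and 5.30 in the crypt-labelled libraries and 4.89 and 4.83 in villus-labelled LFD sham and HFD VSG. With Arntl, Npas2 and Nfil3 averaged in place of Arntl alone it was 4.05 in crypt-labelled HFD sham, 3.78 in HFD VSG, and 4.12 and 3.76 in villus-labelled HFD sham and HFD VSG. In the largest cluster it was 5.41 in crypt-labelled LFD sham, 5.21 in HFD VSG and 5.28 in villus-labelled LFD sham. Thinned, it was 4.21 in crypt-labelled HFD VSG and 5.46 in villus-labelled LFD sham, the latter with Arntl in 0.107% of cells. With the 10% limit it was 3.43 in villus-labelled LFD sham and 4.51 in HFD sham, and with a free RNA share of 0.25 removed, from every library or from HFD sham only, 4.99 in crypt-labelled HFD sham. In cycling progenitor-like cells, subtraction of a free RNA share of 0.25 from every library, chosen after seeing the data, turned the index to -0.75 in crypt-labelled LFD sham and -0.28 in HFD VSG, and to -1.49 and -1.25 in the same groups of villus-labelled libraries; at 0.1 these 2 were -0.16 and 0.02. The cause was not tested. Median-of-ratios scaling moved totals by factors of 0.974 to 1.047. No paired analysis was possible because each group and fraction had 1 library. Arntl, with 32 to 82 UMIs, limits the index.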
